A study of Sus scrofa with 19 samples.

Results

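The calpain system of porcine longissimus dorsi muscle (LD) was described through 5 genes: the protease subunits *CAPN1*, *CAPN2* and *CAPN3*, the regulatory subunit *CAPNS1* and the inhibitor *CAST* (calpastatin). Its members were all probe sets whose platform annotation gives exactly 1 gene symbol, that symbol being 1 of these 5. This rule found 11 of the 23999 probe sets that are no array controls, with 1 probe set each for *CAPN1* and *CAPN2*, 2 each for *CAPN3* and *CAPNS1* and 5 for *CAST*. The pigs, 19 Duroc barrows of a commercial line slaughtered at 190 days of age, gave RNA of the muscle that the labels call longissimus thoracis et lumborum, and each pig had its own porcine GeneChip. The labels place 10 pigs in the high fattening group (LD HIGH) and 9 in the low fattening group (LD LOW). By the labels they come from the extremes of a ranking on fat-related traits. The paper's methods describe a random choice of pigs, but for a smaller set with arrays of both this muscle and gluteus medius. Neither the family nor a hybridisation batch is given per pig. The values are log2 signals after GCRMA, and replicate numbers only name pigs.

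Calpains are calcium-dependent cysteine proteases of the cytosol. *CAPN1* (µ-calpain) and *CAPN2* (m-calpain) encode catalytic subunits that differ in the calcium level they need, and each pairs with the small subunit encoded by *CAPNS1*. Calpastatin binds both calpains in the presence of calcium and blocks them. *CAPN3* encodes a calpain of skeletal muscle that is anchored to titin, and its loss causes a limb-girdle muscular dystrophy in humans. In meat animals the balance of calpains and calpastatin is known for its part in muscle protein turnover and in tenderisation after slaughter.

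By the RefSeq annotation of Sscrofa11.1, *CAPN1* lies on chromosome 2 from 6997513 to 7024410 and *CAST* on the same chromosome from 103255738 to 103378623. *CAPN2* lies on chromosome 10 from 19758824 to 19820241, and *CAPN8*, a calpain without a named probe set, ends 26717 bases before it. *CAPN3* lies on chromosome 1 from 128960117 to 129013508 and *CAPNS1* on chromosome 6 from 45511410 to 45518610. Which exons or untranslated regions the probe sets match was not analysed here.

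Array medians lay at 3.43 to 3.59 on the log2 scale in LD HIGH and at 3.44 to 3.56 in LD LOW, and the lowest correlation of a pair of arrays was 0.971. As background served 17 tag controls with no porcine target (mean 2.11), and 67.5% of the 23999 probe sets exceeded all of them on all arrays. Skeletal muscle fibre markers were present throughout: each of the 7 measured, such as *CKM* and *MYH2*, exceeded the tag controls on all 19 arrays. Of 12 adipocyte markers 9 were measured, and 6 of these exceeded the tag controls on all arrays. *ADIPOQ* exceeded them on 18 arrays, *CEBPA* on 1, and *LEP* was below the tag controls on every array. The mean log2 signal of all 9 was 6.05 ± 0.22 (5.60 to 6.30) in LD HIGH and 5.66 ± 0.31 (5.25 to 6.27) in LD LOW (SD), a difference of 0.39 that is larger than either SD. Fewer cells of a type and less RNA per cell cannot be told apart in such bulk samples. A set of 3 arrays stood apart from its group on a measure of the whole array, and results that rest on them are given with and without them. The highest array median (3.59) was that of LD HIGH replicate 4, and LD HIGH replicate 3 had the highest signal of the bacterial spike-in controls (8.14, the other 9 pigs 5.18 to 6.22). LD LOW replicate 1 had the widest 3' minus 5' signal of control transcripts (1.61, the other 8 pigs 0.770 to 1.19).

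Of the 11 probe sets, 9 exceeded every tag control on all 19 arrays, so that each of the 5 genes had at least 1 probe set above background in every pig. Where a gene has several probe sets they are named by letters in order of falling mean, so that A is the leading one. The 2 that did not are probe sets of *CAST*. CAST D reached 2.26 to 2.66 in LD HIGH and 2.29 to 2.66 in LD LOW and exceeded the tag controls on only 2 arrays. CAST E stayed at 1.74 to 1.80 in LD HIGH and 1.75 to 1.81 in LD LOW and exceeded them on 0 arrays. As affinities of probes differ, no probe set's level is set against another's and no order of the genes is given. The pigs differed most on CAPNS1 B, CAPN3 B and *CAPN1*, whose SD over 19 pigs (0.54, 0.49 and 0.48) exceeded that of 85.8%, 81.4% and 79.9% of the probe sets above background. The other detected members lay between 46.9% and 60.0%.

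**Figure D1:**
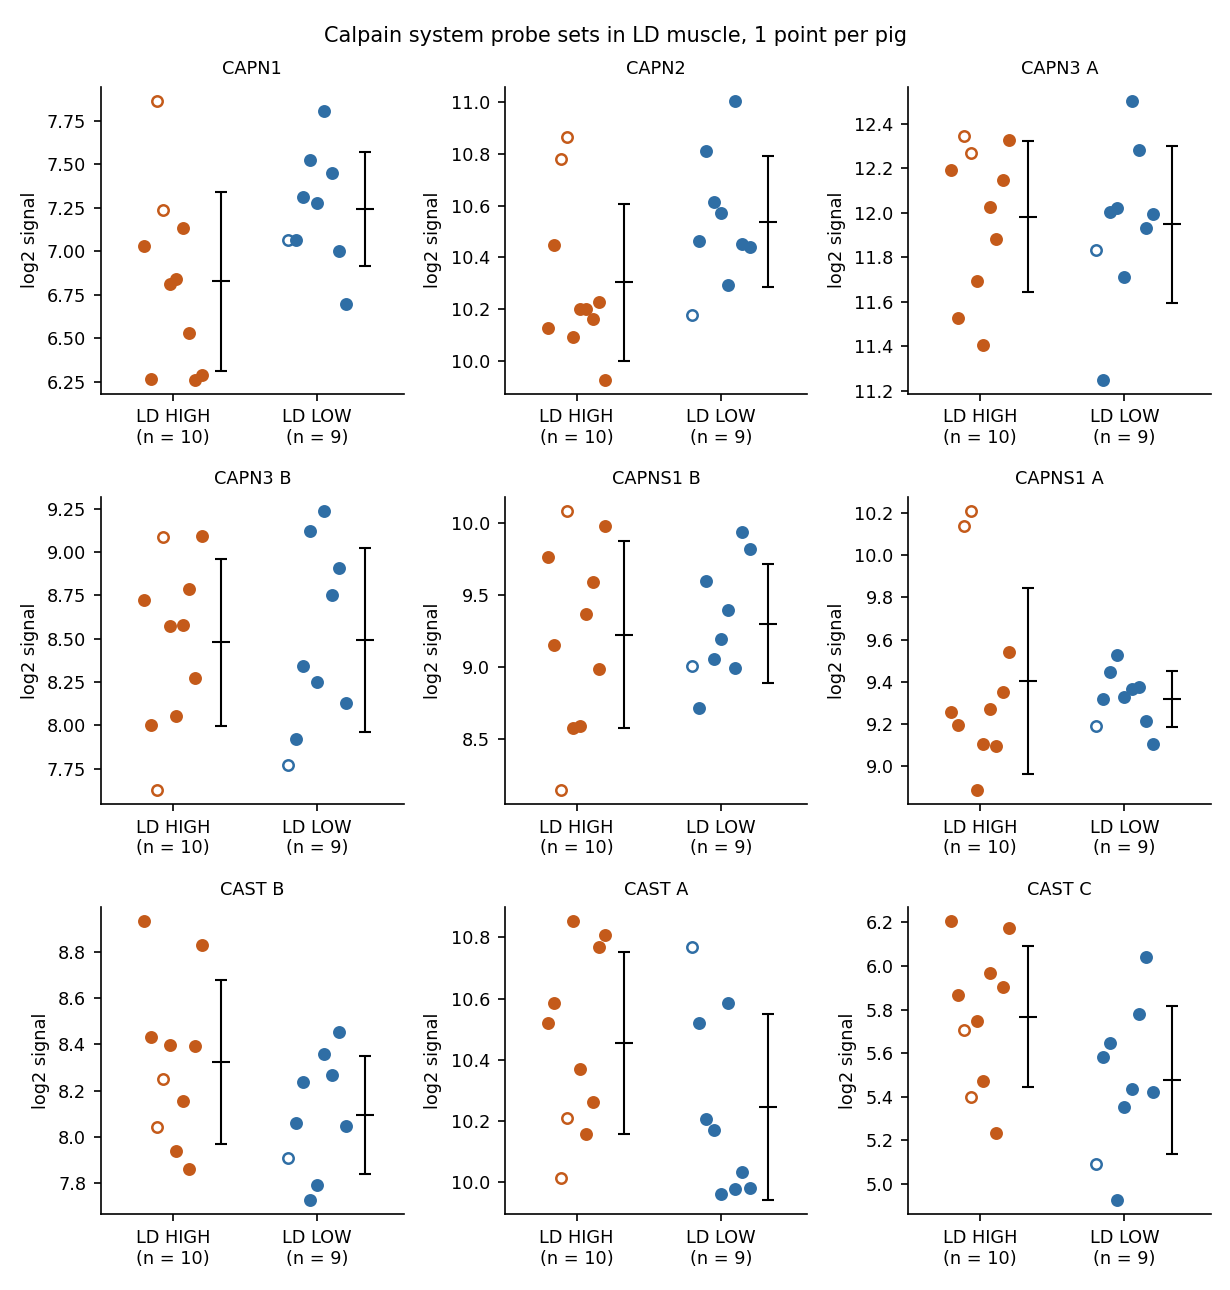
Log2 signal of the 9 member probe sets above background, 1 point per pig, LD HIGH (n = 10) left and LD LOW (n = 9) right in each panel, with the mean and SD as a black bar and open points for the 3 arrays that stand apart. *CAPN1* and *CAPN2* averaged lower and the 3 *CAST* probe sets higher in LD HIGH, and the groups overlap in every panel.

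To ask whether the calpain system differs between fattening extremes, LD HIGH was compared with LD LOW by limma over all 23999 probe sets, with a mean-variance trend and Benjamini-Hochberg adjustment. At an adjusted p under 0.05, 0 of the 11 member probe sets passed, where 0% of all probe sets passed (smallest adjusted p over all of them 0.993). At an unadjusted p under 0.05, 1 of the 11 passed, *CAPN1*, which was lower in LD HIGH, where 3.51% of all probe sets passed (1.64% lower and 1.87% higher in LD HIGH). The groups overlapped for all 11, as they did for all but 0.00417% of the probe sets. Among the 9 detected members *CAPN1* and *CAPN2*, with 1 probe set each, had lower means in LD HIGH, and the 3 *CAST* probe sets had higher means. The 2 probe sets of *CAPN3* lay near 0 with opposite signs, and so did those of *CAPNS1*. The median log2 difference of these 9 was 0.03, against -0.01 over all probe sets. The mean of the adipocyte markers was higher in LD HIGH by 0.39, close in size and opposite in sign to the *CAPN1* difference given next. The part of these markers in the members' differences was not tested.

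*CAPN1*, the catalytic subunit of µ-calpain, was measured by 1 probe set. Its log2 signal had a lowest value of 6.26, a median of 6.83 and a highest of 7.87 in LD HIGH, against 6.70, 7.28 and 7.81 in LD LOW. Of the 10 LD HIGH pigs, 9 lay below the LD LOW mean, and the exception, replicate 3, was the highest of all 19. Its mean was 6.83 ± 0.52 in LD HIGH (SD, n = 10), against 7.25 ± 0.33 in LD LOW (SD, n = 9), a log2 difference of -0.42 (95% interval -0.83 to -0.01, SE 0.20), which is 0.749-fold. The unadjusted p from limma was 0.0457 and the adjusted p 0.993, while an exact permutation test over the 92378 splits of the pigs gave an unadjusted two-sided p of 0.0547. Without the 3 arrays that stand apart the difference was -0.62 (limma, unadjusted p = 0.00225, adjusted p = 0.127).

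*CAPN2*, the catalytic subunit of m-calpain, was also measured by 1 probe set. Log2 signals ran from 9.93 over a median of 10.20 to 10.86 in LD HIGH, against 10.18, 10.46 and 11.005 in LD LOW. In LD HIGH 7 pigs lay between 9.93 and 10.23, replicate 2 at 10.45, and replicates 3 and 4 at 10.78 and 10.86. The mean of *CAPN2* was 10.30 ± 0.30 in LD HIGH and 10.54 ± 0.25 in LD LOW (SD), a log2 difference of -0.23 (95% interval -0.50 to 0.03, limma unadjusted p = 0.0826 and adjusted p = 0.993). Replicates 3 and 4 of LD HIGH and replicate 1 of LD LOW, the arrays that stand apart, hold the 2 highest values of LD HIGH and the lowest of LD LOW. Without them the mean was 10.17 ± 0.15 in LD HIGH and 10.58 ± 0.23 in LD LOW (SD, n = 8 each), and the log2 difference of -0.41 did not pass (limma unadjusted p = 0.000770 and adjusted p = 0.0829).

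*CAPN3*, the titin-bound calpain of muscle, was read by CAPN3 A at 11.41 to 12.35 (median 12.09) in LD HIGH and 11.25 to 12.50 (median 11.99) in LD LOW. Its mean was 11.98 ± 0.34 in LD HIGH and 11.95 ± 0.35 in LD LOW, and the difference of 0.03 (95% interval -0.28 to 0.35) is well within either SD. CAPN3 B ran from 7.63 to 9.09 (median 8.58) in LD HIGH and from 7.77 to 9.24 (median 8.34) in LD LOW, with a difference of -0.01 (95% interval -0.48 to 0.45). LD HIGH replicate 3 had the highest signal of its group on CAPN3 A (12.35) and the lowest of all pigs on CAPN3 B (7.63). The intervals do not exclude a log2 change of 0.28 in either direction.

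*CAPNS1*, the small subunit that stabilises both µ- and m-calpain, was read by CAPNS1 A at 8.89 to 10.21 (median 9.26) in LD HIGH and 9.10 to 9.53 (median 9.33) in LD LOW. The 2 highest values, 10.14 and 10.21, were again those of LD HIGH replicates 3 and 4, and the other 8 LD HIGH pigs did not exceed 9.54. The SD was 0.44 in LD HIGH and 0.13 in LD LOW, and the log2 difference was 0.09 (95% interval -0.23 to 0.40). CAPNS1 B ran from 8.15 to 10.09 (median 9.26) in LD HIGH and from 8.72 to 9.94 (median 9.20) in LD LOW, a difference of -0.08 (95% interval -0.58 to 0.42). On CAPNS1 B, LD HIGH replicate 3 was the lowest of all 19 pigs (8.15) and replicate 4 the highest (10.09). Without the 3 arrays that stand apart CAPNS1 A had a difference of -0.12 and CAPNS1 B of -0.09, with adjusted p of 0.437 and 0.819 from limma.

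*CAST* encodes the inhibitor, and mammalian calpastatin transcripts are known to start at several first exons and to be spliced in several ways. CAST A ran from 10.01 to 10.85 (median 10.44) in LD HIGH and from 9.96 to 10.77 (median 10.17) in LD LOW. CAST B ran from 7.86 to 8.93 (median 8.32) in LD HIGH and from 7.73 to 8.45 (median 8.06) in LD LOW. CAST C ran from 5.23 to 6.21 (median 5.81) in LD HIGH and from 4.93 to 6.04 (median 5.43) in LD LOW. On each of these probe sets 7 of the 10 LD HIGH pigs lay above the LD LOW mean, and the groups overlapped. The log2 differences were 0.21 (95% interval -0.07 to 0.49), 0.23 (-0.07 to 0.53) and 0.29 (-0.03 to 0.61), none larger than the SD of a group. Their unadjusted p from limma were 0.139, 0.127 and 0.0714, and each adjusted p was 0.993. They are not independent measurements, since they come from the same gene and the same RNA. Without the 3 arrays that stand apart the leading probe set differed by 0.36 and the other ones by 0.25 and 0.30 (adjusted p of 0.256, 0.422 and 0.419 from limma).

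**Figure D2:**
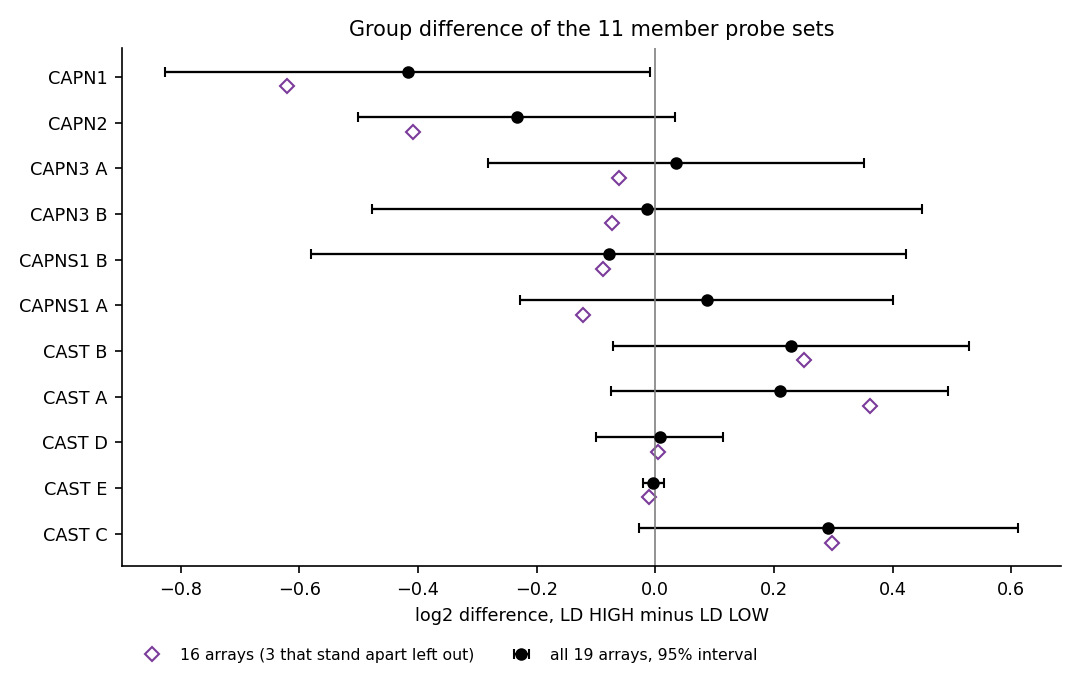
Log2 difference of LD HIGH minus LD LOW for the 11 member probe sets (horizontal axis), as black points with the 95% interval of limma over 19 arrays and as open diamonds without the 3 arrays that stand apart. Only the interval of *CAPN1* (-0.83 to -0.01) leaves out 0, and the diamonds of *CAPN1* and *CAPN2* lie further below 0 at -0.62 and -0.41.

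With the 3 arrays left out, 75 of the 23999 probe sets (0.313%) passed at an adjusted p under 0.05 and 0 of the 11 members were among them. At an unadjusted p under 0.05, 3 of the 11 members passed (*CAPN1* and *CAPN2* lower, the leading *CAST* probe set higher), where 12.5% of all probe sets did. This setting was chosen after the data had been seen, from array-level measures and not from the members' values. The array-wide count of calls thus depends on these arrays, while the members' count of adjusted calls is 0 in both settings.

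The balance of protease and inhibitor was read in each pig as the log2 signal of a calpain minus that of *CAST*, by the leading probe sets. Its zero has no meaning, because the probe sets differ in affinity, and only its variation between pigs can be read. *CAPN1* minus *CAST* ran from -4.52 to -2.15 (median -3.63) in LD HIGH and from -3.70 to -2.52 (median -2.90) in LD LOW. In LD HIGH 5 pigs lay below every LD LOW pig, whereas replicate 3 lay above all of them. The mean balance was -3.63 ± 0.76 in LD HIGH and -3.0 ± 0.40 in LD LOW (SD), so the difference of -0.63 is 1.01 times the pooled SD in size.

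*CAPN2* minus *CAST* ran from -0.88 to 0.77 (median -0.15) in LD HIGH and from -0.59 to 1.03 (median 0.44) in LD LOW. Of the LD HIGH pigs 8 lay at or below 0.04 and 2, replicates 3 and 4, at 0.77 and 0.65, while 6 of the LD LOW pigs lay at 0.42 or above. The difference of means was -0.44, or 0.844 times the pooled SD in size. *CAPN3* minus *CAST* differed by -0.18, well within its pooled SD of 0.49, with ranges of 0.84 to 2.33 in LD HIGH and 0.73 to 2.31 in LD LOW. No test is given for the balances, as they combine members whose results were known. With CAST B or CAST C as the *CAST* probe set, the difference was -0.65 and -0.71 for *CAPN1*, -0.46 and -0.53 for *CAPN2*, and -0.19 and -0.26 for *CAPN3*. Without the 3 arrays that stand apart the differences were -0.98 for *CAPN1*, -0.77 for *CAPN2* and -0.42 for *CAPN3*. The balance was lower in LD HIGH with each of these *CAST* probe sets. Its sign was fixed by the members' differences given above, so it is no further result.

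**Figure D3:**
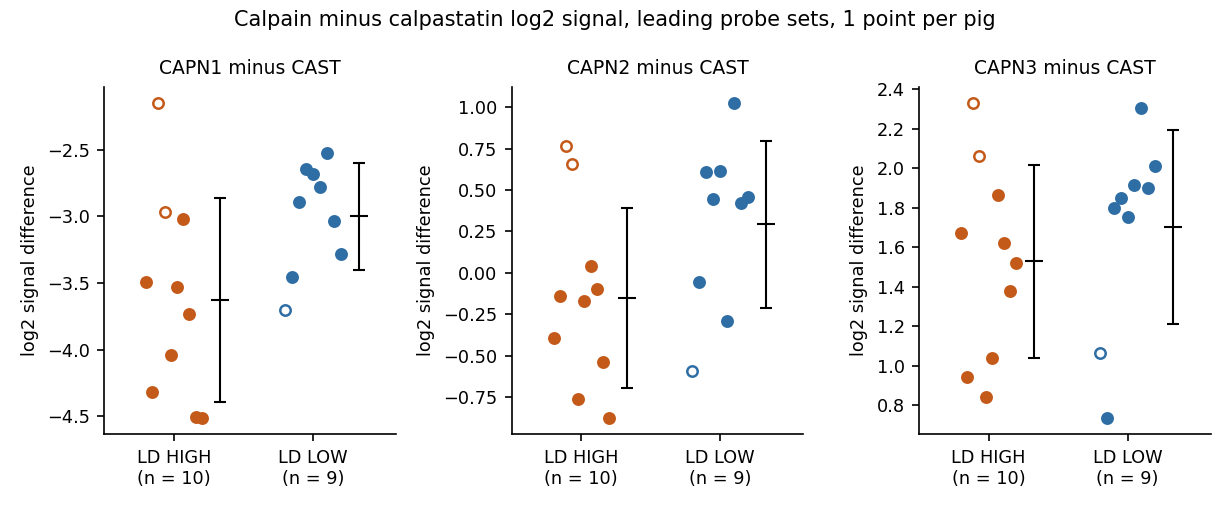
Log2 signal of *CAPN1*, *CAPN2* or *CAPN3* minus that of *CAST*, leading probe sets, 1 point per pig, LD HIGH left and LD LOW right, with the mean and SD as a black bar and open points for the arrays that stand apart. The means of LD HIGH lie lower by 0.63, 0.44 and 0.18 in the 3 panels, and LD HIGH replicate 3 (open, highest of its group in each) runs against that direction.

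To see whether the members move together from pig to pig, Pearson's r and Spearman's rho were computed over the 19 pigs for the 10 pairs of leading probe sets, with a permutation test of 100000 resamples and adjustment over these pairs. By r, 3 of the 10 pairs passed. *CAPN2* and *CAST* moved in opposite directions (r = -0.69, p = 0.00143, adjusted p = 0.0143, and rho = -0.68, p = 0.00200, adjusted p = 0.0100, permutation tests). Leaving out the pigs farthest from the median of *CAPN2*, LD HIGH replicate 10 and LD LOW replicate 7, gave r = -0.59. Within LD HIGH r was -0.64 and within LD LOW -0.65, each close to the value with group means removed (-0.64), although neither group alone passed after adjustment. Its size depended on the *CAST* probe set: against CAST B and CAST C *CAPN2* had r of -0.32 and -0.24, given without a test, and against the mean of all 3 it had r = -0.50 (adjusted p = 0.102 from the permutation test).

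*CAPN1* rose with *CAPN2* over the pigs (r = 0.58, p = 0.00938, adjusted p = 0.0337, and rho = 0.62, adjusted p = 0.0171, permutation tests). This call was marginal. With group means removed r was 0.49 and did not pass (adjusted p = 0.0677 by permutation), and without the pigs farthest on *CAPN1*, LD HIGH replicates 3 and 9, r was 0.52 (adjusted p = 0.0838 by permutation). It was lost without any single one of 8 pigs, LD HIGH replicates 3, 4, 5, 6, 8 and 10 and LD LOW replicates 4 and 7, with r from 0.51 to 0.58. Within LD HIGH r was 0.62 and within LD LOW 0.23. *CAPN2* rose with *CAPNS1*, the small subunit it pairs with (r = 0.57, p = 0.0101, adjusted p = 0.0337, and rho = 0.58, adjusted p = 0.0271, permutation tests). That relation had r = 0.69 with group means removed (adjusted p = 0.0144 by permutation), r = 0.79 within LD HIGH and 0.54 within LD LOW. Without the pigs farthest on *CAPN2*, LD HIGH replicate 10 and LD LOW replicate 7, r was 0.78. This call was marginal too: it was lost without any single one of 6 pigs, and r was 0.33 without the 3 arrays that stand apart. The relation rests on the leading *CAPNS1* probe set, as the mean of both *CAPNS1* probe sets gave r = 0.22 (adjusted p = 0.597 from the permutation test). Against CAPNS1 B alone *CAPN2* had r = -0.08, given without a test.

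**Figure D4:**
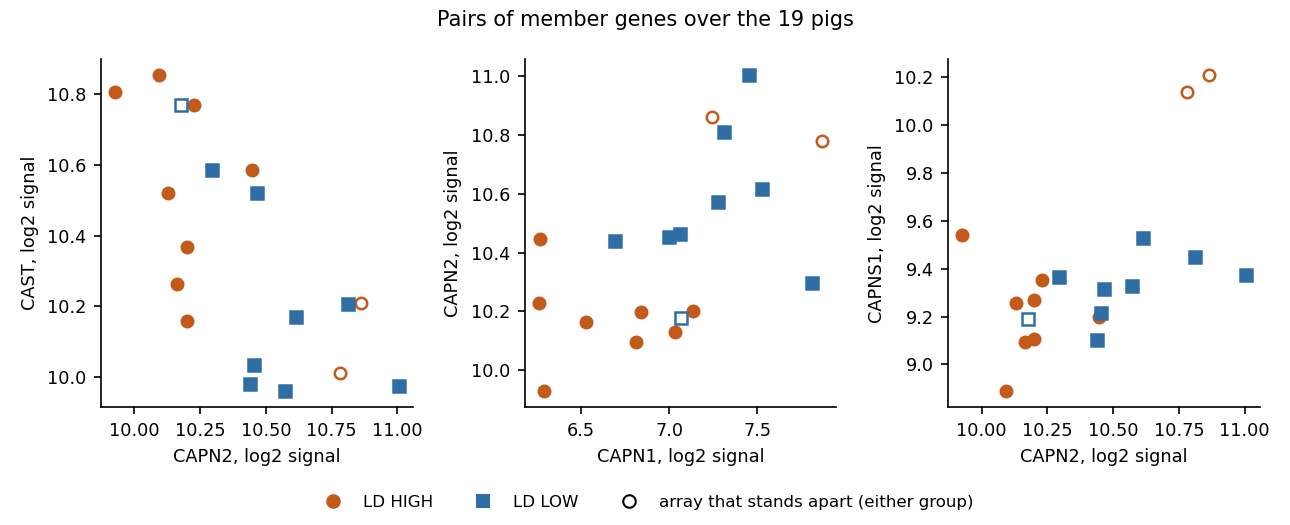
Log2 signals of *CAPN2* and *CAST*, *CAPN1* and *CAPN2*, and *CAPN2* and *CAPNS1* (leading probe sets), 1 point per pig, circles for LD HIGH, squares for LD LOW and open symbols for the arrays that stand apart. *CAPN2* and *CAST* fall along a descending line (r = -0.69), and in the last panel both open circles lie above every other pig on *CAPNS1*.

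None of the remaining 7 pairs passed by r, whose values ran from -0.48 for *CAPN1* and *CAST* to 0.52 for *CAPN3* and *CAPNS1*. By rho, *CAPN3* and *CAPNS1* (rho = 0.69, adjusted p = 0.0100) and *CAPN1* and *CAPNS1* (rho = 0.56, adjusted p = 0.0271, permutation tests) passed as well, and for *CAPN1* and *CAST* rho was -0.49 (adjusted p = 0.0568). With group means removed *CAPN1* and *CAPNS1* passed by r too (r = 0.59, adjusted p = 0.0271 by permutation), against r = 0.46 (adjusted p = 0.0765 by permutation) over all pigs. This relation rests on the leading *CAPNS1* probe set. Against CAPNS1 B *CAPN1* had the opposite sign, with r = -0.25, and -0.32 with group means removed, given without a test. The size of r between *CAPN3* and *CAPNS1* also varied with the probe sets. It was 0.36 for CAPN3 A with CAPNS1 B, 0.09 for CAPN3 B with CAPNS1 A and 0.61 for CAPN3 B with CAPNS1 B, without a test. *CAPN1* and *CAST* had r = -0.75 within LD HIGH and 0.20 within LD LOW, and the difference between these values was not tested. Without the 3 arrays that stand apart, 0 of the 10 pairs passed by r: *CAPN2* and *CAST* kept r = -0.66 (adjusted p = 0.0511), *CAPN1* and *CAPN2* had 0.53 (adjusted p = 0.166) and *CAPN2* and *CAPNS1* had 0.33 (adjusted p = 0.413, permutation tests).

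Correlations with *CAPN2* of this size and sign were not rare on these arrays, whereas few probe sets had an r as low as -0.69 with the leading *CAST* probe set. *CAPN2* and *CAST* were the member pair with the largest r in size, and shares for CAST B and CAST C were not computed. Only r of the same sign was counted, so the share with a positive r of that size is not given. Among the 16193 other probe sets above background, 3.87% had an r with *CAPN2* of -0.69 or lower, and 0.228% had an r that low with *CAST*. An r with *CAPN2* as high as that of *CAPN1* was found for 13.8% of them, and as high as that of *CAPNS1* for 14.7%. The leading principal component of these probe sets held 24.99% of their variance. *CAPN2* followed it at r = 0.81 (p = 3.00e-05, adjusted p = 0.000150, and rho = 0.91, permutation tests), and r was 0.77 without the 3 arrays that stand apart. *CAST* ran against it at r = -0.58 and *CAPNS1* with it at r = 0.62 (adjusted p = 0.0128 each by permutation, after adjustment over the 5 genes), where *CAPNS1* had r = 0.12 without these arrays. These are values of the leading probe sets. With the same component CAST B and CAST C had r of -0.38 and -0.33 and CAPNS1 B of -0.05, given without a test. *CAPN1* had r = 0.44 (adjusted p = 0.0724 by permutation) and *CAPN3* 0.01. By rho the calls differed for a pair of genes: *CAPNS1* did not pass (rho = 0.44, adjusted p = 0.0780) and *CAPN1* did (rho = 0.50, adjusted p = 0.0496), while *CAST* passed again (rho = -0.59, adjusted p = 0.0234, permutation tests). The part of this shared variation in the members' relations was not tested.

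Whether probe sets of 1 gene report the same differences between pigs was examined over the 5 pairs of detected probe sets. CAST B and CAST C moved together (r = 0.85, rho = 0.84, p = 1e-05 for each, the smallest that 100000 resamples can give, adjusted p = 5.00e-05, permutation tests), with r = 0.84 in LD HIGH and in LD LOW. The leading *CAST* probe set followed them less closely, at r = 0.45 and 0.20 (adjusted p = 0.0932 and 0.526 by permutation). The *CAPN3* probe sets had r = 0.52 (adjusted p = 0.0548 by permutation), and r = 0.75 (adjusted p = 0.00167 by permutation) without the 3 arrays that stand apart. The *CAPNS1* probe sets had r = 0.05 (adjusted p = 0.855 by permutation), and r = 0.27 without those arrays. Results for *CAPNS1* therefore depend on which of its probe sets is read.

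**Figure D5:**
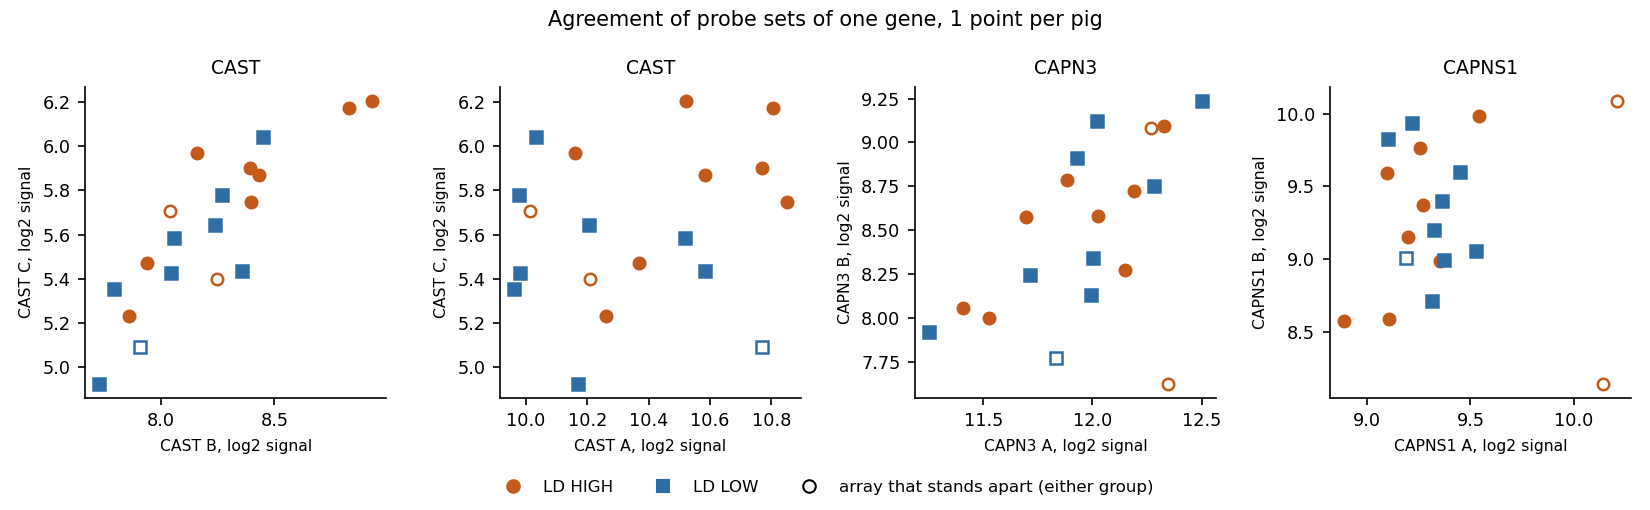
Log2 signals of pairs of probe sets of *CAST*, *CAPN3* and *CAPNS1*, 1 point per pig, circles for LD HIGH, squares for LD LOW and open symbols for the arrays that stand apart. The first *CAST* pair lies along a line (r = 0.85), the second is scattered (r = 0.20), and in the *CAPN3* and *CAPNS1* panels LD HIGH replicate 3 (open circle at the lower right) is far from the other pigs.

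Measures of RNA quality, fat and fibre type were set beside the 5 leading probe sets, and 0 of these 20 relations passed after adjustment (permutation tests, smallest adjusted p = 0.324). With the 3' minus 5' signal of control transcripts r ran from -0.42 for *CAPN3* to 0.36 for *CAST*. With the array median r was 0.54 for *CAPNS1* (p = 0.0188, and 0.01 without the 3 arrays), 0.49 for *CAPN2* (p = 0.0324) and -0.43 for *CAST* (p = 0.0661, permutation tests). With the adipocyte score, a mean of z-scores, r ran from -0.35 for *CAPN1* to 0.29 for *CAST*. With group means removed, r with this score was -0.18 for *CAPN1*, 0.14 for *CAST* and -0.27 for *CAPN3*. With the slow minus fast fibre score r ran from -0.13 for *CAPN3* to 0.28 for *CAPNS1*. The part of these measures in the group differences was not tested beyond the setting with the 3' minus 5' signal as a covariate, in which 0 of the 11 members passed.

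Of 13 other calpain family genes 2 had a named probe set. *CAPN7*, an atypical calpain without the calcium-binding domain of the classical ones, exceeded the tag controls on all 19 arrays, with 8.28 ± 0.21 in LD HIGH and 8.41 ± 0.25 in LD LOW (log2 difference -0.13, unadjusted p = 0.244 and adjusted p = 0.993 from limma). *CAPN10*, another atypical calpain, exceeded them on 7 arrays, with 2.52 ± 0.34 in LD HIGH and 2.48 ± 0.28 in LD LOW. Of 31 muscle proteins that calpains cut or bind 21 were measured, all above background on every array. In limma 0 of the 21 passed at an adjusted p under 0.05, and 3 had an unadjusted p under 0.05, where 3.51% of all probe sets did. Of the 21, 10 had a higher and 11 a lower mean in LD HIGH, and their median log2 difference was -0.02.

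The 4 genes of that list with the smallest p were *RYR1*, *TLN1*, *ANXA1* and *ANXA2*. *RYR1*, the calcium release channel of the sarcoplasmic reticulum, had a mean of 12.08 ± 0.25 in LD HIGH and 12.39 ± 0.27 in LD LOW (log2 difference -0.30, unadjusted p = 0.0166 from limma). *TLN1*, which encodes talin, a link of integrins to actin, had 6.59 ± 0.37 in LD HIGH and 6.94 ± 0.22 in LD LOW (log2 difference -0.35, unadjusted p = 0.0249 from limma). The calcium-dependent membrane binding proteins *ANXA1* and *ANXA2* had higher means in LD HIGH, by 0.50 (unadjusted p = 0.0446 from limma) and 0.41 (unadjusted p = 0.0775 from limma). Each of these 4 had an adjusted p of 0.993, and the ranges of the groups overlapped for all of them.

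The genes most alike in pattern were taken as those with the highest r over the 19 pigs after the group means were removed. They were picked from 5357 named genes above background and are given as a description. As the highest of so many values over few pigs, these r are large by selection. *CAPN1* was most like *TEAD4* (r = 0.83), a transcription factor of the Hippo pathway, *C2H11orf24* (0.82) and *HIGD2A* (0.81), a respiratory chain assembly factor. *CAPN2* was most like *RAB8A* (0.85), *TLR1* (0.84) and *DNMT1* (0.84), whose group means of 2.96 to 3.45 are low on this scale. *CAPN3* was most like *TCF25* (0.87), the tubulin gene *TUBB4B* (0.87) and *AUP1* (0.85), a protein of endoplasmic reticulum and lipid droplets. For *CAPNS1* they were *CDIP1*, *VPS4A*, an ATPase of membrane scission, and *GALT*, an enzyme of galactose metabolism (0.87 each), the last at a low level (2.91 in LD HIGH and 2.84 in LD LOW). *CAST* was most like *COMMD8* (0.85), the annexin gene *ANXA4* (0.83) and the histone acetyltransferase gene *HAT1* (0.83).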

How the data were processed

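Total RNA of 19 LD samples was hybridised to the GeneChip Porcine Genome Array. GCRMA made the deposited log2 signals, per the labels' processing notes, which give no version, while the paper's methods describe RMA. Either method summarises several probes into 1 value per probe set. A second deposited table holds 4268 of the 24114 probe sets, 3 of them members, with identical log2 values. The sources used here do not say how it was filtered. The 115 controls were left out and no filter on level was set. Genes were named from the platform annotation and placed through RefSeq by Entrez identifier (all 5 members matched).

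Group differences came from limma 3.58.1 (R 4.3.3), with eBayes and its trend option after lmFit. Tested on simulated data with 200 of 23999 probe sets changed, it recovered 35.8% of those changed by 1.5-fold, 74.6% by 2-fold and 97.0% by 3-fold, with 8 false among 146 calls. The changed probe sets were drawn only from those with a mean above the median, so the rates hold for such probe sets. The simulated noise was independent between probe sets. Permutation tests ran in Python 3.11.15. The p-values set a difference or a correlation against the variation between pigs. They take the pigs as independent, although the family of each pig is not given. The number of arrays limits the precision.

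Probe sets are named by letters within a gene, A having the highest mean. Named were all member probe sets, every measured gene of the calpain family list, the 4 genes of the list of cut or bound muscle proteins with the smallest p, and the 3 genes most like each member. Members and lists were chosen with earlier results of these data known. Alternatives were another variance model, a level filter, median centring, the 3' minus 5' covariate, the second table, single pigs left out, other probe sets per gene and, added after seeing the data, 3 arrays left out together and single pigs left out of the correlations.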

Additional observations from a re-analysis of the deposited data

Results flagged for a closer look

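Of 36 sets of values of a group, 6 had a pig far from all others, and about 1 in 20 would by chance. In 3 of these cases the values are those of *CAST* probe sets at background level. On CAST D, LD HIGH replicate 2 had 2.66, where the other 9 pigs had 2.34 ± 0.07, and LD LOW replicate 9 had 2.66, where the other 8 had 2.33 ± 0.03. On CAST E, LD LOW replicate 5 had 1.81, where the other 8 had 1.76 ± 0.01. The other 3 cases are measures of whole arrays. The array median was 3.59 in LD HIGH replicate 4 (the other 9 pigs 3.47 ± 0.03). The signal of the spike-in controls was 8.14 in LD HIGH replicate 3 (the other 9 pigs 5.59 ± 0.29). The 3' minus 5' signal was 1.61 in LD LOW replicate 1 (the other 8 pigs 1.003 ± 0.15). None of the 9 detected member probe sets and none of the 3 balances had such a pig, although LD HIGH replicates 3 and 4 together held the highest *CAPN2* and leading *CAPNS1* signals of that group.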

How the results depend on the processing

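The count of member probe sets with an adjusted p under 0.05 stayed at 0 under every alternative run, single pigs left out included (0 to 0 also over all probe sets), and the smallest adjusted p of a member with 1 pig left out was 0.645. Over all probe sets 75 passed without the 3 arrays that stand apart. The log2 differences of *CAPN1*, *CAPN2* and the 3 detected *CAST* probe sets kept their sign under all alternatives run. Near 0 the sign turned: without the 3 arrays to -0.062 for CAPN3 A and -0.12 for CAPNS1 A, and with array medians removed to -0.0013 for CAST D. With single pigs left out the range was -0.053 to 0.10 for CAPN3 A, -0.10 to 0.081 for CAPN3 B, -0.17 to 0.041 for CAPNS1 B, -0.0025 to 0.14 for CAPNS1 A, -0.024 to 0.044 for CAST D and -0.0073 to 0.0012 for CAST E. The balance differences ranged from -0.79 to -0.53 for *CAPN1*, -0.55 to -0.35 for *CAPN2* and -0.30 to -0.10 for *CAPN3* with single pigs left out.

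Of the 10 member pairs 3 passed, and 3 with group means removed, where *CAPN1* and *CAPNS1* took the place of *CAPN1* and *CAPN2*, against 0 within LD HIGH, 0 within LD LOW, 1 with array medians removed, 0 without the 3 arrays and 1 to 5 with single pigs left out. *CAPN2* and *CAST* passed without any single pig (adjusted p from 0.00630 to 0.0358 by permutation). *CAPN1* and *CAPN2* lost the call without any of LD HIGH replicates 3, 4, 5, 6, 8 and 10 and LD LOW replicates 4 and 7 (r from 0.51 to 0.58 there), and *CAPN2* and *CAPNS1* without any of LD HIGH replicates 3, 4, 5, 6 and 8 and LD LOW replicate 4 (r from 0.47 to 0.56). The r of pairs that did not pass turned sign to 0.20 for *CAPN1* and *CAST* within LD LOW, to 0.032 for *CAPN3* and *CAST* with the 3' minus 5' signal regressed out, and to 0.20 for *CAPN3* and *CAST* and 0.10 for *CAPNS1* and *CAST* with means of probe sets. Without the 3 arrays it turned to -0.015 for *CAPN2* and *CAPN3* and to 0.0024 for *CAPN3* and *CAST*, and 3 of 5 pairs of probe sets of 1 gene passed in place of 1. The cause was not tested. In the second deposited table only 3 members could be tested. No paired analysis was possible because the labels give no number that the groups share.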
